A study of Arabidopsis thaliana with 4 samples.

Results

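The C2H2 zinc finger genes described here are ZAT10 (STZ), ZAT12 (RHL41), ZAT6, ZAT7, ZAT11, AZF1, AZF2, AZF3 and AT2G28200, which the member list names ZAT5 and to which the annotation gives no symbol. They are 9 of the 37869 loci in the deposited tables, were picked by locus, and all 9 passed the filter on low counts. They were picked with the difference between tho2-8 and Col-LUC already known, so their values in that contrast are a description. No p-value is given for any single member, and counts of members passing a threshold are printed as description only. The samples were whole seedlings of Arabidopsis thaliana, raised on soil for 14 days, with 2 libraries of Col-LUC, the background line, and 2 of tho2-8, a mutant of the THO complex gene THO2 in that background. The titles gave the group, because the genotype label reads Col-LUC for all 4 libraries. The nature of the tho2-8 allele, the number of plants per library and the handling at harvest are missing from the labels.

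ZAT proteins carry a pair of C2H2 zinc fingers with the conserved core QALGGH, a plant signature that contacts DNA. Most of them also hold an EAR motif, a short leucine-rich stretch that recruits TOPLESS-type corepressors and histone deacetylases, and several are known to repress transcription. Their messages accumulate quickly after wounding, touch, cold, salt, high light or oxidants, downstream of calcium and MAP kinase signals, and plants with altered ZAT10 or ZAT12 differ in tolerance of salt, light and oxidative stress.

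The coding DNA of the first finger is shown for all 9 genes, because it is what the genes share and what makes the family. Each stretch of 63 bases codes for 21 residues, is read 5′ to 3′ on the coding strand from RefSeq's TAIR10.1 genome, and has the codons of QALGGH in capitals.
ZAT10 (chr1:9648680-9648742, minus strand): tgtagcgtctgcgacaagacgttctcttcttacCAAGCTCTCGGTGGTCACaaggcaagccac
ZAT12 (chr5:24103193-24103255, plus strand): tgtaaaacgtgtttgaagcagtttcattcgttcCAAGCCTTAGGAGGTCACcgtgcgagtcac
ZAT6 (chr5:1216705-1216767, minus strand): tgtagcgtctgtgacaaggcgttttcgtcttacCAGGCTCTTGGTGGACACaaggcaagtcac
ZAT7 (chr3:16926625-16926687, minus strand): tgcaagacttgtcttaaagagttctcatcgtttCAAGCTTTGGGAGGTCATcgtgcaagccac
ZAT11 (chr2:15706598-15706660, plus strand): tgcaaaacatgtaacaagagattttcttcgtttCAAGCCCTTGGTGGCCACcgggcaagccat
AZF1 (chr5:26919523-26919585, minus strand): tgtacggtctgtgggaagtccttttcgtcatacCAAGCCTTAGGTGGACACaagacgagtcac
AZF2 (chr3:6803731-6803793, minus strand): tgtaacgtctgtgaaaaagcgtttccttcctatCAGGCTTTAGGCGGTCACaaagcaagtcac
AZF3 (chr5:17331341-17331403, minus strand): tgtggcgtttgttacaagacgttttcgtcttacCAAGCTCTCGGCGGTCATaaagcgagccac
AT2G28200 (chr2:12024669-12024731, plus strand): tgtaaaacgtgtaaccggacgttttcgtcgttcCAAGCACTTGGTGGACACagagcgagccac
The second finger is shown for the closest pairs, ZAT6 with AZF3 and ZAT12 with ZAT7.
ZAT6 (chr5:1216528-1216590, minus strand): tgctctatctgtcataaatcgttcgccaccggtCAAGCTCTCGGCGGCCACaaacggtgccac
AZF3 (chr5:17331212-17331274, minus strand): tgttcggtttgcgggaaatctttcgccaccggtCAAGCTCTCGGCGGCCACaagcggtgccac
ZAT12 (chr5:24103322-24103384, plus strand): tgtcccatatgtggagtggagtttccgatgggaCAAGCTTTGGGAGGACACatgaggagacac
ZAT7 (chr3:16926487-16926549, minus strand): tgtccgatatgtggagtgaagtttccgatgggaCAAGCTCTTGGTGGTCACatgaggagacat

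All 9 first fingers used a different set of codons for the same QALGGH core, and among the second fingers ZAT6 and AZF3 shared theirs base for base. Between members, 35 to 55 of the 63 bases of the first finger were identical, with ZAT10 and ZAT6 the closest pair. For the second finger the range was 36 to 56, with ZAT12 and ZAT7 the closest.

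Each of the 9 genes had 1 exon in its longest coding model, whereas 20.2% of protein-coding genes in the annotation had 1. Each held 2 QALGGH fingers, 22 residues apart in ZAT12 and AZF3 and 54 residues apart in AT2G28200. Translated lengths ran from 162 residues for ZAT12 to 286 for AT2G28200. The EAR pattern DLNxxP (x, any residue) occurred in 4 of them, at residue 190 of ZAT10, 203 of ZAT6, 150 of ZAT11 and 166 of AZF3, in each case after the second finger. This pattern was present in 0.681% of all translated proteins. The looser pattern LxLxL occurred in 7 of the 9, against 27.1% of all translated proteins, and in ZAT12, ZAT7 and AT2G28200 it was the pattern found after the second finger.

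**Figure D1:**
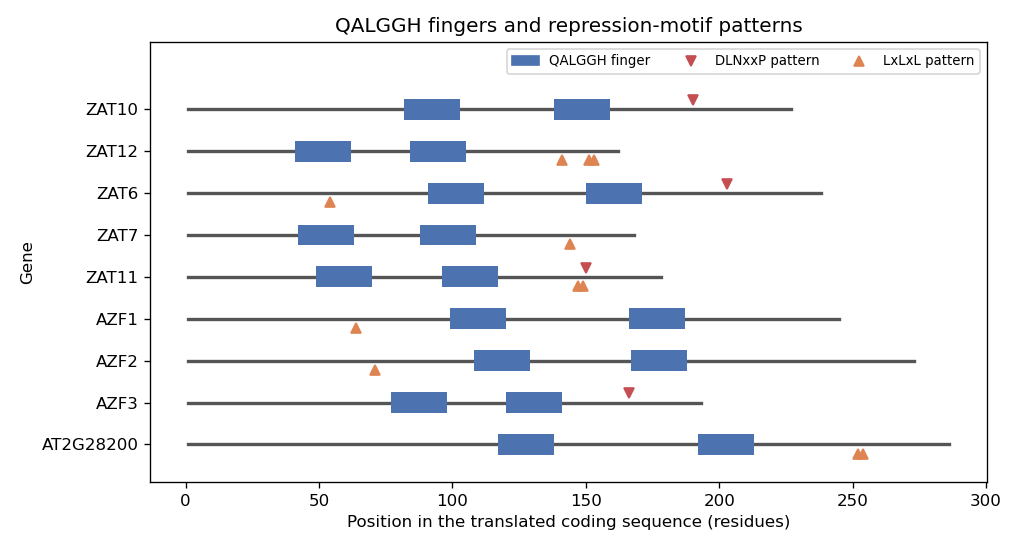
Position in residues (x axis) of the QALGGH fingers (blue boxes, 21 residues each) and of the DLNxxP and LxLxL patterns (red and orange triangles) along the translated coding sequence of each gene (y axis, grey lines to scale). ZAT10, ZAT6, ZAT11 and AZF3 have a DLNxxP pattern after the second finger.

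By protein identity, taken over the shorter protein of each pair, ZAT10 and ZAT6 were 73.6% identical, ZAT10 and AZF3 71.0%, ZAT6 and AZF3 65.3% and ZAT12 and ZAT7 66.0%. The lowest value was 28.0%, between ZAT7 and AZF2. ZAT10, ZAT6 and the AZF genes were at least 44.1% identical to each other. ZAT11 and AT2G28200 were 44.9% identical.

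ZAT10 lies on chromosome 1 from 9648021 to 9649323 (minus strand, TAIR10.1). ZAT11 lies on chromosome 2 from 15706285 to 15707224 and AT2G28200 on the same chromosome from 12023940 to 12025370, both on the plus strand. On chromosome 3, AZF2 lies from 6802903 to 6804296 and ZAT7 from 16925881 to 16926883, both on the minus strand. Chromosome 5 holds ZAT6 from 1216058 to 1217362, AZF3 from 17330945 to 17331646 and AZF1 from 26918765 to 26920179 on the minus strand, and ZAT12 from 24102814 to 24103794 on the plus strand. AZF3 overlaps QWRF9 on the opposite strand by 408 bp, and since it is not stated whether counting was stranded, its values are uncertain. ZAT7 shares runs of 31 identical coding bases with its neighbour AT3G46080 (16922514 to 16923299), covering 5.87% of its 31-base windows, so reads could be shared there. For the other members that share was at most 1.27%.

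Library totals lay between 17119534 and 17877941 counts. A level of 3 counts equals 0.165 to 0.177 CPM, the count scaled to the library size by TMM. THO2 itself stood at 82.1 and 84.6 CPM in Col-LUC against 109 and 100.1 CPM in tho2-8. Across 20971 tested genes 2 passed (0.00954%) in edgeR's quasi-likelihood test, adjusted by Benjamini-Hochberg, and limma-voom called 1. DESeq2 called 270 higher (1.03% of the 26186 it tested) and 290 lower (1.11%). It gave no adjusted p to some of these genes, such as APX2, so the shares among genes it could call are higher. This holds wherever a DESeq2 share is given. Without Col-LUC replicate 1 or 2 edgeR called 0 genes (2472 and 2813 at an unadjusted p under 0.05), and without tho2-8 replicate 1 or 2 it called 710 and 115. All 22 organ markers had counts in every library. The 8 root markers summed to 117 and 57.1 CPM in Col-LUC and to 60.1 and 36.6 CPM in tho2-8. The 8 floral organ markers summed to 14.0 and 50.4 CPM in Col-LUC and to 28.9 and 20.2 CPM in tho2-8, and the 6 green tissue markers to 11630 and 17030 and to 14920 and 12220 CPM. None of the lists was at 0, and their part in the ZAT values was not tested. In these bulk samples fewer cells of a type and less RNA per cell cannot be told apart.

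ZAT10, ZAT12 and ZAT6 were the members with the highest fold differences, and in each of them the genotypes did not overlap. ZAT10 (AT1G27730), a repressor known for salt tolerance, gave 21.8 and 30.8 CPM in Col-LUC replicates 1 and 2 and 119 and 187 CPM in tho2-8 replicates 1 and 2. Both tho2-8 libraries were above both Col-LUC libraries. The log2 fold change of ZAT10, tho2-8 against Col-LUC, was 2.54 ± 0.28 (SE, n = 2 per genotype), which is 5.80-fold.

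ZAT12 (AT5G59820), known from responses to high light and oxidative stress, stood at 9.23 and 9.74 CPM in Col-LUC against 36.6 and 53.2 CPM in tho2-8. The Col-LUC libraries were nearly equal, and the tho2-8 libraries were apart by 1.45-fold. Its log2 fold change was 2.24 ± 0.23 (SE, n = 2 per genotype), or 4.73-fold. ZAT6 (AT5G04340), known from phosphate and cadmium responses, stood at 11.4 and 11.9 CPM in Col-LUC against 27.2 and 31.3 CPM in tho2-8. The spread between replicates was small in both genotypes, at 1.05-fold and 1.15-fold. The log2 fold change of ZAT6 was 1.33 ± 0.18 (SE, n = 2 per genotype), or 2.52-fold.

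The AZF genes, repressors known from responses to abscisic acid and salt, differed among themselves. AZF2 (AT3G19580) stood at 10.03 and 13.0 CPM in Col-LUC against 17.2 and 22.4 CPM in tho2-8, with no overlap between the genotypes. Its log2 fold change was 0.78 ± 0.24 (SE, n = 2 per genotype). AZF3 (AT5G43170) stood at 4.76 and 3.31 CPM in Col-LUC against 4.81 and 6.87 CPM in tho2-8. The groups were separated only by the gap between 4.76 and 4.81 CPM, which is smaller than the spread within either genotype, and they overlapped with DESeq2 size factors or library totals. The log2 fold change of AZF3 was 0.53 ± 0.36 (SE, n = 2 per genotype).

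AZF1 (AT5G67450) stood at 4.47 and 3.54 CPM in Col-LUC against 5.42 and 2.53 CPM in tho2-8, so the tho2-8 libraries lay on either side of the Col-LUC libraries. Its log2 fold change was -0.01 ± 0.45 (SE, n = 2 per genotype). This value turned to 0.01 with library totals in place of TMM, to 0.16 without Col-LUC replicate 1 and to 0.45 without tho2-8 replicate 2. It was -0.69 without tho2-8 replicate 1.

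ZAT7 and ZAT11 were the members with the fewest counts. ZAT7 (AT3G46090), which has been linked to salt tolerance through its EAR motif, had 9 and 16 counts in Col-LUC and 30 and 11 in tho2-8, or 0.516, 0.945, 1.68 and 0.605 CPM. The exact 95% Poisson intervals, which cover counting error only, ran from 4.12 to 17.1 for the lowest count and from 20.2 to 42.8 for the highest. ZAT11 (AT2G37430), linked to root growth and nickel tolerance, had 24 and 12 counts in Col-LUC and 35 and 15 in tho2-8. In the same order these were 1.38, 0.709, 1.96 and 0.825 CPM. In both genes tho2-8 replicate 1 was the highest library and tho2-8 replicate 2 lay within the Col-LUC range. The log2 fold change was 0.64 ± 0.69 for ZAT7 and 0.41 ± 0.63 for ZAT11 (SE, n = 2 per genotype), and without tho2-8 replicate 1 it was -0.29 and -0.37.

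AT2G28200, whose role is not described in the annotation used here, stood at 23.5 and 28.2 CPM in Col-LUC against 38.1 and 31.2 CPM in tho2-8. The genotypes did not overlap, with 28.2 and 31.2 CPM the nearest values. Its log2 fold change was 0.42 ± 0.18 (SE, n = 2 per genotype).

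**Figure D2:**
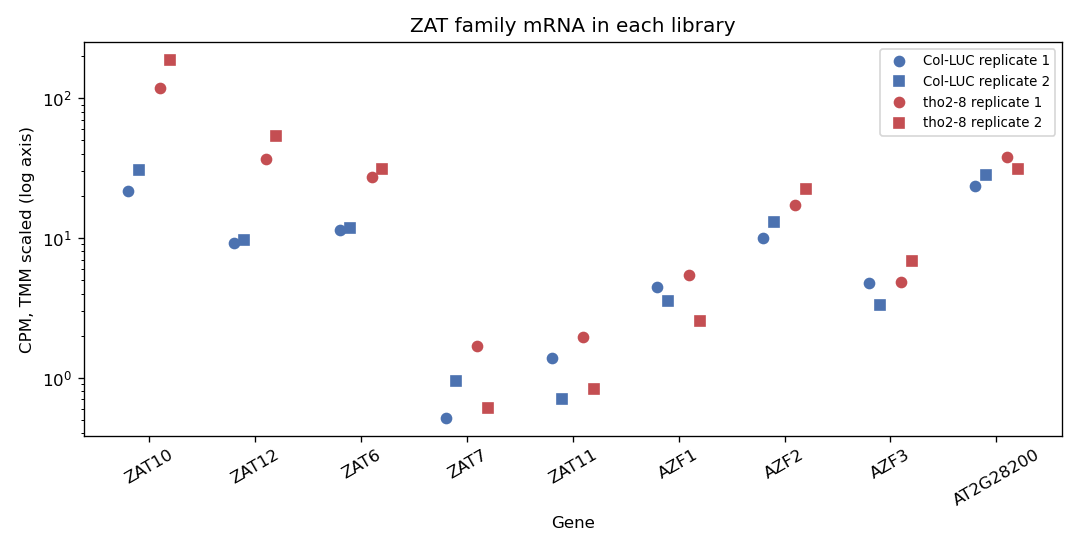
CPM on a log axis (y) of each gene (x axis) in the 4 libraries, with Col-LUC in blue, tho2-8 in red, circles for replicate 1 and squares for replicate 2. ZAT10 runs from 21.8 to 187 CPM, while the tho2-8 points of AZF1, at 5.42 and 2.53 CPM, lie on either side of its Col-LUC points.

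Of the 9 members 8 had a log2 fold change above 0, where 51.5% of all tested genes did, and 6 had both tho2-8 libraries above both Col-LUC libraries, where 25.7% of all tested genes did. For 0 members both tho2-8 libraries lay below both Col-LUC libraries, as they did for 22.8% of all tested genes. With DESeq2 size factors or library totals in place of TMM, 5 members were separated, as AZF3 then overlapped. The median over the members was 0.64 on the log2 scale, against 0.01 over all tested genes. By edgeR 0 members were called higher (0.00477% of all tested genes were, and as many lower). Before adjustment edgeR gave 4 higher and 0 lower at a p under 0.05 (8.4% and 7.18% of all tested genes). By DESeq2 3 were called higher (1.03% of the genes it tested). limma-voom called 0. edgeR called 3 members higher without the filter on low counts and 3 without tho2-8 replicate 1, 2 without tho2-8 replicate 2 and 0 without either Col-LUC library. Because the members were chosen on this contrast, nothing is read from these counts. Without tho2-8 replicate 1 the number of members above 0 was 6.

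**Figure D3:**
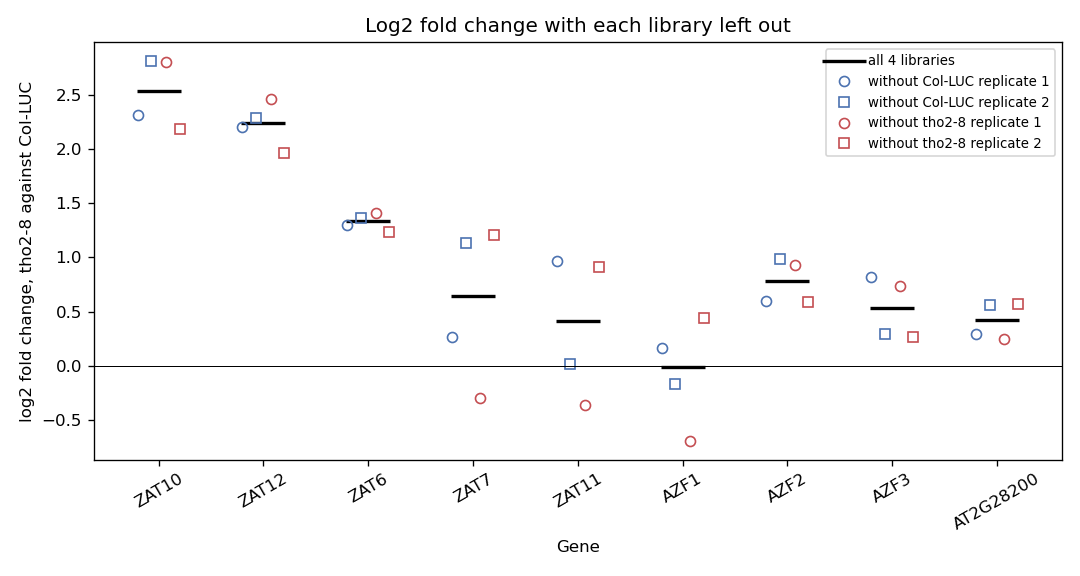
Log2 fold change of each gene (y axis, tho2-8 against Col-LUC) with all 4 libraries (black bars) and with each library left out in turn (open symbols). ZAT10, ZAT12 and ZAT6 stay above 1 in each fit, and ZAT7, ZAT11 and AZF1 fall below 0 without tho2-8 replicate 1.

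The members did not all differ in the same direction between the 2 tho2-8 replicates. ZAT10, ZAT12, ZAT6, AZF2 and AZF3 were higher in tho2-8 replicate 2 than in replicate 1, by 0.65, 0.54, 0.21, 0.38 and 0.51 on the log2 CPM scale. ZAT7, ZAT11, AZF1 and AT2G28200 were lower in replicate 2, by -1.43, -1.22, -1.09 and -0.29. The first set holds the closest protein relatives ZAT10, ZAT6 and AZF3, but ZAT12 and ZAT7, which are 66.0% identical, fell on different sides. Between the Col-LUC replicates the same difference, 2 minus 1, was 0.50 for ZAT10, 0.08 for ZAT12, 0.06 for ZAT6 and 0.38 for AZF2. It was -0.52 for AZF3, 0.84 for ZAT7, -0.93 for ZAT11, -0.33 for AZF1 and 0.26 for AT2G28200. Several members thus differed between the Col-LUC replicates as well, with AZF3, ZAT7 and AT2G28200 in the other direction. Root, floral organ and green tissue markers all had a lower mean log2 level, relative to the Col-LUC mean, in tho2-8 replicate 2 than in replicate 1. In replicates 1 and 2 root markers stood at -0.47 and -1.19, floral at -0.22 and -0.58, and green tissue at 0.16 and -0.01. In Col-LUC replicates 1 and 2 these levels were 0.47 and -0.47, -0.94 and 0.94, and -0.18 and 0.18. The part of these markers in the replicate differences of the members was not tested.

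Levels can be compared between genes once CPM is divided by exon length. In Col-LUC, ZAT10 and AT2G28200 had the highest mean levels, at 20.2 and 18.1 CPM per kb, and their ranges overlapped. ZAT12 followed at 9.67, then ZAT6 at 8.90 and AZF2 at 8.28 CPM per kb, of which ZAT6 and AZF2 overlapped. Below them came AZF3 at 5.74, AZF1 at 2.83, ZAT11 at 1.11 and ZAT7 at 0.728 CPM per kb, with ZAT11 and ZAT7 overlapping. The length used for AZF3 includes the 408 bp that overlap QWRF9, so its level per kb and its rank are uncertain in both genotypes.

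In tho2-8, ZAT10 stood at 117 and ZAT12 at 45.8 CPM per kb, each clear of the next gene. AT2G28200 at 24.2 and ZAT6 at 22.4 CPM per kb overlapped. AZF2 at 14.2 and AZF3 at 8.32 CPM per kb came next, and AZF1, ZAT11 and ZAT7 at 2.81, 1.48 and 1.14 CPM per kb each overlapped the next gene in that order. Among all tested genes ranked by CPM per kb, ZAT10 moved from the 62.98 and 72.05 percentiles in the Col-LUC libraries to the 95.2 and 97.4 percentiles in the tho2-8 libraries. ZAT12 moved from the 44.1 and 45.7 percentiles to the 83.7 and 89.9 percentiles. ZAT7 stayed between the 3.04 and 13.5 percentiles.

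Summed over the 9 genes, the level was 70.4 and 80.7 CPM per kb in Col-LUC and 203 and 273 CPM per kb in tho2-8. ZAT10 made up 23.8% and 29.3% of that sum in Col-LUC and 45.0% and 52.6% in tho2-8. AT2G28200 made up 23.3% and 24.4% in Col-LUC and 13.1% and 8.01% in tho2-8. The share of ZAT6 was 12.4% and 11.3% in Col-LUC and 10.3% and 8.81% in tho2-8, although its level was higher there. Of the difference between the mean sums, 59.9% was ZAT10, 22.3% ZAT12 and 8.34% ZAT6.

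**Figure D4:**
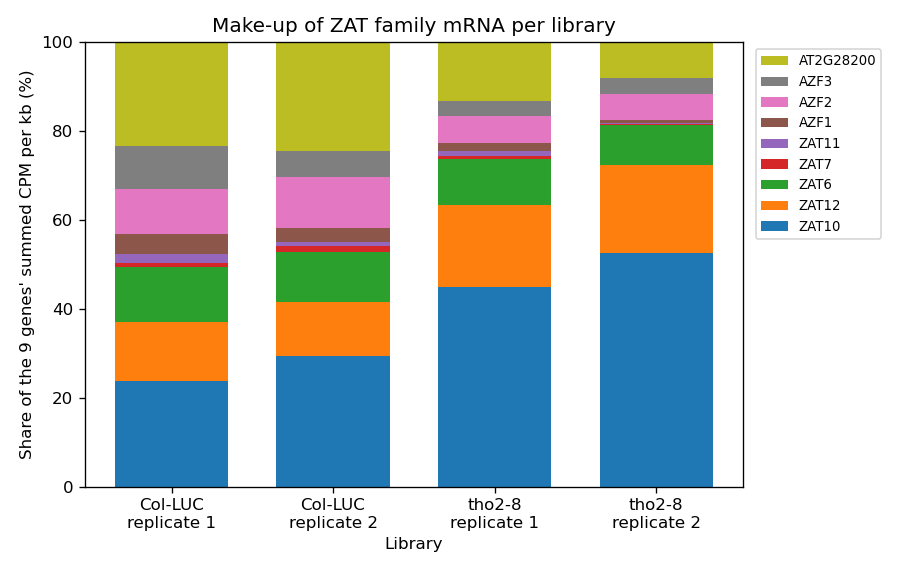
Share (y axis, percent) of each of the 9 genes in their summed CPM per kb, in each library (x axis). The ZAT10 part at the base grows from 23.8% and 29.3% in the Col-LUC libraries to 45.0% and 52.6% in the tho2-8 libraries.

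The annotation holds 26 genes whose translated coding sequence has 2 or more QALGGH fingers, the 9 members and 17 others. Of the 17 others 10 passed the filter on low counts, while 4 had 0 counts in all 4 libraries, which allows at most 0.165 to 0.177 CPM. DAZ1 and DAZ2, known from pollen, were among those 4. edgeR called 0 of these 10, and DESeq2 and limma-voom called 0. Before adjustment edgeR gave 0 with p under 0.05, where 8.4% of all tested genes were higher and 7.18% lower. Their median log2 fold change was 0.08, and it was 0.55 without tho2-8 replicate 2 and -0.16 without tho2-8 replicate 1.

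AT2G45120 had the highest log2 fold change of the 10, at 0.83 ± 0.45 (SE, adjusted p = 0.419 by edgeR), with 1.43 and 2.72 CPM in Col-LUC and 4.03 and 3.35 CPM in tho2-8. AT5G03510, the most abundant by mean CPM, stood at 3.27 and 2.60 CPM in Col-LUC against 5.54 and 2.91 CPM in tho2-8. AT1G49900 had 3.10 and 2.42 CPM against 2.01 and 2.36 CPM, and AT2G28710 had 2.12 and 2.01 CPM against 4.25 and 1.48 CPM. AT3G60580, AT5G04390 and AT3G49930 had log2 fold changes of 0.04, -0.09 and 0.11, each smaller than its SE. AT3G46080, the chromosomal neighbour of ZAT7, stood at 0.974 and 1.65 CPM in Col-LUC against 1.90 and 0.605 CPM in tho2-8, with the same highest and second highest library as ZAT7. The 17 others together reached 13.5 to 22.1 CPM per kb per library, so the 9 members held 81.9% and 85.4% of the family's summed level in Col-LUC and 90.2% and 95.3% in tho2-8.

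**Figure D5:**
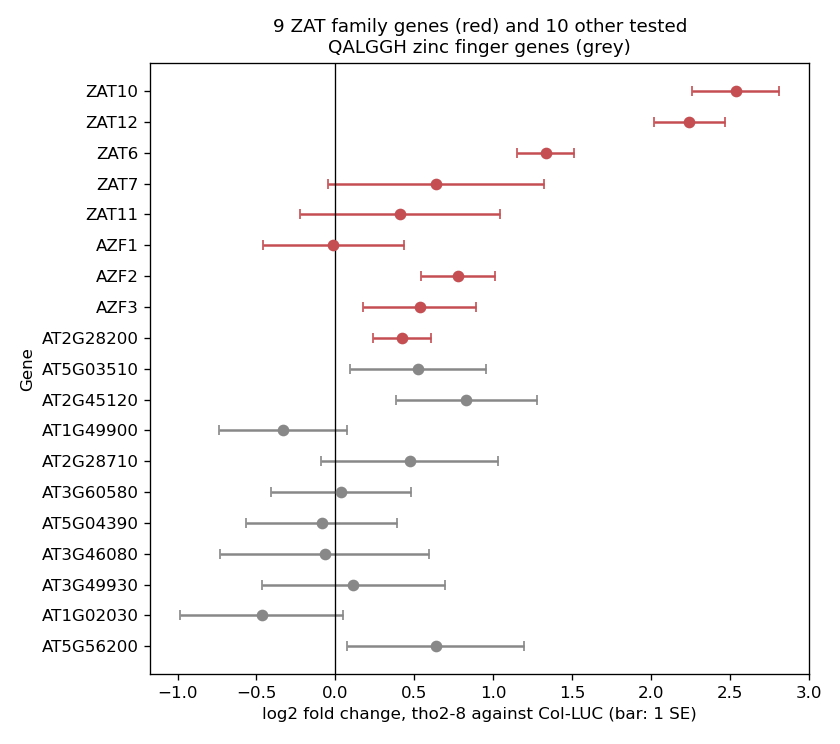
Log2 fold change of tho2-8 against Col-LUC (x axis, bars of 1 SE, n = 2 per genotype) for the 9 ZAT family genes in red and the 10 other tested QALGGH genes in grey (y axis). ZAT10, ZAT12 and ZAT6 lie at 2.54, 2.24 and 1.33, and the grey points between -0.47 and 0.83.

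Promoter windows of 300 bases before the annotated start are shown for ZAT10, ZAT12 and ZAT6, the members with the highest fold differences. They come from RefSeq's TAIR10.1 genome and are written 5′ to 3′ on the gene's strand. Capitals mark matches on either strand to the W-box core TTGAC, the ABRE core ACGTG, the DRE core CCGAC and the heat shock pair GAANNTTC.
ZAT10 (chr1:9649324-9649623, minus strand): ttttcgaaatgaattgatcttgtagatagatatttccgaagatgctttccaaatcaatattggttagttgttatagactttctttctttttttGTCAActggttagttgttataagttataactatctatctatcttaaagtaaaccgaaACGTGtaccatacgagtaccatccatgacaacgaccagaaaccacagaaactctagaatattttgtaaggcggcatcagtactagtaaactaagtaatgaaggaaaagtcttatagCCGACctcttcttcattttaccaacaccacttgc
ZAT12 (chr5:24102514-24102813, plus strand): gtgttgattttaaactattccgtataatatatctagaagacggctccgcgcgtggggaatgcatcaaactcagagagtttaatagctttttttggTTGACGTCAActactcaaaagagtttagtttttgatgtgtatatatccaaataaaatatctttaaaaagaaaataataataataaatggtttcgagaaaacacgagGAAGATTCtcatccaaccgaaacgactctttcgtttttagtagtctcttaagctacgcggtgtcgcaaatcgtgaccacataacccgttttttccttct
ZAT6 (chr5:1217363-1217662, minus strand): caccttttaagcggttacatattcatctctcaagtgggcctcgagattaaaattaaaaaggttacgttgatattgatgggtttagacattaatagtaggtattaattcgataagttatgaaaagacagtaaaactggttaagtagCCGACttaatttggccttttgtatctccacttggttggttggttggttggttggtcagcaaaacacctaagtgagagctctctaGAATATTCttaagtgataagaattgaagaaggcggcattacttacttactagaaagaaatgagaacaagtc

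The W-box core, bound by WRKY factors, occurred in 7 of the 9 member windows and in 50.4% of all 27443 protein-coding windows of that length. In ZAT12 matches on opposite strands lay side by side in one palindrome, sharing no base. The DRE core, bound by CBF and other DREB factors, occurred in 4 members, namely ZAT10, ZAT6, AZF2 and AZF3, and in 13.9% of all windows. The heat shock pair occurred in 4 members, ZAT12, ZAT6, ZAT7 and ZAT11, and in 11.5% of all windows. The ABRE core of abscisic acid responses occurred in 2, ZAT10 and AZF3, and in 25.6% of all windows. In AZF2 a W-box and a DRE match shared a base. The element CGCGTT, known from the rapid stress response and bound by CAMTA factors, occurred in 0 of the 9 and in 3.08% of all windows. Only this exact string was searched, so the 0 does not cover other stretches with CGCG, such as those in the ZAT12 window. ZAT10, ZAT12 and ZAT6 shared none of these motifs as a trio. The windows are short and a match is a description of letters only.

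Genes known from the rapid response to wounding and stress were described as the setting in which ZAT10 and ZAT12 are usually seen. This list and those below were chosen with earlier results of these data known. Their counts and p-values are a description, and nothing is read from them. Of the 22 tested genes of this list 22 had a log2 fold change above 0 and 20 had both tho2-8 libraries above both Col-LUC libraries, against 51.5% and 25.7% of all tested genes. The list's median was 0.94 on the log2 scale, against 0.01 over all tested genes. edgeR called 0 of them, with 18 higher and 0 lower before adjustment at a p under 0.05 (8.4% and 7.18% of all tested genes). DESeq2 called 11 higher (1.03% of the genes it tested) and limma-voom 0. Without tho2-8 replicate 1 edgeR called 12, without tho2-8 replicate 2 it called 3, and without either Col-LUC library 0. TCH4, a cell wall xyloglucan endotransglucosylase, stood at 33.3 and 26.2 CPM in Col-LUC against 83.2 and 118 CPM in tho2-8. CAF1A, a deadenylase, had 28.1 and 41.9 CPM against 117 and 173 CPM. DIC2, a mitochondrial dicarboxylate carrier, had 16.2 and 18.2 CPM against 54.8 and 105 CPM. CML24 (TCH2), a calmodulin-like protein whose gene overlaps another on the opposite strand by 723 bp, had 35.7 and 31.9 CPM against 67.9 and 89.3 CPM. The adjusted p of these 4 genes by edgeR ran from 0.0871 to 0.0961.

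Upstream kinases, calcium-dependent CAMTA factors and heat shock factors had a median of 0.08 over 22 tested genes. edgeR called 0, with 3 higher and 0 lower before adjustment at a p under 0.05 (8.4% and 7.18% of all tested genes). DESeq2 and limma-voom called 0. The kinase kinase genes MKK4 and MKK9, whose products activate MPK3 and MPK6, had log2 fold changes of 0.78 ± 0.16 and 0.78 ± 0.20 (SE, edgeR adjusted p = 0.131 and 0.176). MKK4 stood at 22.5 and 23.7 CPM in Col-LUC against 42.6 and 36.9 CPM in tho2-8. The MKK4 gene overlaps another on the same strand by 204 bp, so its values are uncertain. The heat shock factor gene HSFA1A stood at 0.88 ± 0.21 (SE, edgeR adjusted p = 0.163). MPK3 stood at 0.42 ± 0.20 (SE, edgeR adjusted p = 0.377), and its gene overlaps another on the opposite strand by 192 bp.

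The corepressor machinery that EAR motifs recruit had a median of 0.04 over 12 tested genes, of which edgeR, DESeq2 and limma-voom called 0. By edgeR 1 of them was higher at an unadjusted p under 0.05, as were 8.4% of all tested genes. TPL, the TOPLESS corepressor, stood at 419 and 507 CPM in Col-LUC against 386 and 357 CPM in tho2-8. The adjusted p of TPL was 0.493 by edgeR. SNL1, a SIN3-like scaffold, had a log2 fold change of 0.37 ± 0.14, SNL4 of 0.19 ± 0.15 and TPR3 of -0.20 ± 0.16 (SE). TPL, SNL1 and TPR3 overlap genes on the opposite strand.

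Genes reported downstream of ZAT factors had a median of -0.39 over 15 tested genes. Before adjustment edgeR gave 3 higher and 5 lower at a p under 0.05 (8.4% and 7.18% of all tested genes). edgeR and limma-voom called 0, and DESeq2 called 1 higher and 3 lower (1.03% and 1.11% of the genes it tested). Without tho2-8 replicate 1 edgeR called 4 and without tho2-8 replicate 2 it called 2. The pathogenesis-related genes PR1, PR2 and PR5 had the smallest p of the list, with log2 fold changes of -5.57 ± 1.00, -3.46 ± 0.63 and -2.64 ± 0.56 (SE, edgeR adjusted p = 0.126, 0.127 and 0.140). The tho2-8 replicates of these genes were far apart, with 113 and 1 counts for PR1, 198 and 41 for PR2 and 85 and 39 for PR5, while Col-LUC held 2039 and 3153, 1600 and 936, and 548 and 194. The size of each fold thus depends on which tho2-8 library and which Col-LUC library is used, the latter most for PR5. Root markers had a median of -0.82 over 8 tested genes, floral organ markers -0.67 over 8 and green tissue markers 0.09 over 5. The part of these markers was not tested. The root marker sums overlapped between the genotypes, at 57.1 CPM in Col-LUC replicate 2 and 60.1 CPM in tho2-8 replicate 1. CBF2, a cold response regulator, stood at 2.75 and 3.54 CPM in Col-LUC against 7.88 and 19.2 CPM in tho2-8, and its edgeR adjusted p was 0.143. FSD1, the iron superoxide dismutase, chosen after its values were seen as the DESeq2-called member with the most counts, stood at 1925 and 2392 CPM in Col-LUC against 915 and 1035 CPM in tho2-8. APX1, the cytosolic ascorbate peroxidase whose expression has been tied to ZAT12 and which was likewise chosen for that role, stood at 656 and 551 CPM in Col-LUC against 479 and 481 CPM in tho2-8 (edgeR adjusted p = 0.487). APX2 did not pass the filter, with 2 and 8 counts in Col-LUC and 0 in both tho2-8 libraries, too few to compare.

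Genes of reactive oxygen production and scavenging had a median of -0.17 over 24 tested genes, and 0.05 without Col-LUC replicate 2. edgeR and limma-voom called 0 with all 4 libraries, DESeq2 called 1 lower, and without tho2-8 replicate 1 edgeR called 1. Before adjustment edgeR gave 0 higher and 5 lower at a p under 0.05 (8.4% and 7.18% of all tested genes). DESeq2 called 1.11% of all the genes it tested lower. The ascorbate peroxidase gene SAPX stood at 155 and 139 CPM in Col-LUC against 91.2 and 90.9 CPM in tho2-8 (edgeR adjusted p = 0.145). RBOHC, the NADPH oxidase of root hairs, had a log2 fold change of -0.98 ± 0.28, the superoxide dismutase MSD1 of -0.53 ± 0.16 and the dehydroascorbate reductase DHAR2 of -0.71 ± 0.23 (SE). Their adjusted p by edgeR ran from 0.200 to 0.225. Root markers stood at a median of -0.82 in the same comparison, and 4 of the 8 had both tho2-8 libraries below both Col-LUC libraries. Floral organ markers stood at -0.67, with 1 of 8 below in that way, and green tissue markers at 0.09, with 0 of 5. The part of these markers was not tested.

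The genes nearest to the median profile of the members, by Euclidean distance of log2 CPM centred on the Col-LUC mean over the 4 libraries, were AT3G28140, UPL7, XRCC2, AT1G05670, AT3G52670 and AGT3 among 18680 candidates. Their distances ran from 0.0470 to 0.112, and their log2 fold changes from 0.84 to 0.95. UPL7 is annotated as a ubiquitin-protein ligase, XRCC2 as a DNA repair gene and AGT3 as an alanine:glyoxylate aminotransferase. AGT3 stood at 39.7 and 43.5 CPM in Col-LUC against 77.8 and 76.2 CPM in tho2-8. UPL7 overlaps AT3G53100 on the opposite strand by 675 bp, so its values are uncertain. The members themselves lay 0.467 (AZF2) to 2.41 (ZAT10) from that profile. AZF2 would rank 539 and ZAT10 17810 among the candidates.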

How the data were processed

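Messenger RNA from 4 whole-seedling samples was sequenced with a stranded kit, per the labels' protocols. The authors deposited estimated counts per gene, not normalised; 2.06% to 2.15% of loci are fractional, so values were rounded. Trimmomatic, HISAT2 2.1.0, featureCounts 1.6.3, DESeq2 1.24.0 and TAIR10 are named in the submitters' processing notes; how strand and reads shared between genes were handled is not stated there. The 296 organelle loci hold 0 counts.

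Genes passing filterByExpr were scaled by TMM and tested with edgeR 4.0.16 (glmQLFit, glmQLFTest, genotype only) in R 4.3.3, with Benjamini-Hochberg adjustment at 0.05 and standard errors from the F statistic. DESeq2 1.42.0, limma-voom (limma 3.58.1), other scalings and filters, a replicate block and leaving out each library were alternatives. Scripts were tested on simulated data. Positions and sequences are RefSeq TAIR10.1; its locus tags matched the members. Fingers were found by translating annotated coding sequences with the pattern C, 2 residues, C, 7 residues, QALGGH, 3 residues, H. Of 120 list entries outside the members 2 were left out, since their symbol and locus were not paired in the annotation.

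Members and lists were chosen with earlier results of these data known. Genes named were the members, the other QALGGH genes, up to 4 tested genes with the smallest p per list and 6 nearest profiles. FSD1, APX1 and APX2 were named outside that rule, after their values were seen. The labels do not say whether replicates came from separate plants, so the p-values reflect the spread between libraries, possibly technical. Replicates differed beyond sampling noise (mean chi-square per gene of 21.7 in Col-LUC and 19.8 in tho2-8).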

Additional observations from a re-analysis of the deposited data

How the results depend on the processing

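Of 98 log2 fold changes of single members recomputed under the alternatives, 94 lay within 1 SD of the value with all 4 libraries. This SD is the spread between the same replicates, and leaving out 1 library can hardly move a value beyond it. The 94 is therefore no measure of stability. Of the 98 values 5 had the other sign, of which 4 came from leaving out 1 library. The values that changed sign belonged to ZAT7, ZAT11 and AZF1; no such change occurred for the other 6 members. The number of members whose genotypes did not overlap was 6 with TMM and 5 with either other scaling. The median over the 9 genes was above 0 in all 11 alternatives, at 0.53 with limma-voom and between 0.74 and 0.98 with 1 library left out. With a CPM of at least 1 required in 2 libraries ZAT7 was not tested.

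edgeR called 2 genes over the whole table, DESeq2 560, limma-voom 1, and edgeR without the filter on low counts 59. Leaving out 1 library gave 0 to 710. The replicate block, which shares only a number between libraries, gave 2. The deviations of same-numbered libraries correlated at -0.125, and a crossed pairing, chosen after seeing the data, gave 537. In the rapid stress list DESeq2 called 11, no filter 3, and leaving out 1 library 0 to 12. In the downstream list DESeq2 called 4 and leaving out 1 library gave 0 to 4, and in the reactive oxygen list these were 1 and 0 to 1. The causes were not tested. ZAT7 and ZAT11 had 9 to 35 counts per library, so counting error is part of their spread; for ZAT7 the exact Poisson intervals of the tho2-8 libraries, 20.2 to 42.8 and 5.49 to 19.7, do not overlap.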
